A study of Mus musculus with 217 samples.

Results

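MHC class II antigen presentation was followed through 8 genes of the 52550 in the deposited count files: the invariant chain gene Cd74, the class II chain genes H2-Aa, H2-Ab1 and H2-Eb1, the peptide exchange genes H2-DMa and H2-DMb1, the transactivator gene Ciita and the protease gene Ctss. They were chosen by name as a pathway, with earlier results of these data known. The libraries hold mRNA bound to the tagged ribosomes of endothelial cells (ECs), taken from the brain, lung and heart of adult RiboTagEC mice (Cdh5CreERT2/+; Rpl22HA/+) of strain C57BL/6J. The control group is 0 hr, and the other groups were taken at 6, 24, 48, 72 and 168 hr after an intraperitoneal dose of 10 mg/kg lipopolysaccharide (LPS), a bacterial endotoxin. Every group, controls included, carried the same alleles and had been given 5 mg tamoxifen by mouth on 4 alternate days when 4 to 6 weeks old. Tamoxifen activates the Cre recombinase, which the promoter of Cdh5 (VE-cadherin) drives, so that only ribosomes of cells in which that promoter had been active carry the HA tag used for the precipitation. The control mice were injected with phosphate-buffered saline according to the study's methods.

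The 217 sequencing runs made up 98 libraries, and 80 of these entered the comparisons. A group of 18 libraries that share a pattern of file names, called library series 3 here, had 2.75% or less of their reads on genes and was left out. The kept groups held 5, 5, 4, 6, 4 and 4 brain libraries at 0, 6, 24, 48, 72 and 168 hr, the same numbers of heart libraries, and 4, 4, 2, 6, 4 and 4 lung libraries. Counts on genes per kept library ran from 7226796 to 32891759 in brain, from 284457 to 43417945 in lung and from 8136031 to 33050750 in heart. The share of reads on genes was 53.4% to 70.0% in brain and 43.7% to 68.9% in heart, but 3.40% to 61.0% in lung. Lung 6 hr replicate 4 was the shallowest kept library and held no count of any of the 8 genes. The changes of H2-DMb1, H2-Eb1 and Cd74 in lung at 6 hr are therefore given with and without it. Other fits of lung over time include it unless stated. Levels are given as CPM, counts per 1000000 over TMM-normalized library sizes, and log2 CPM add a prior count of 2. The summed level of 10 endothelial markers had a median of 1953 CPM in brain, 8656 CPM in lung and 9780 CPM in heart. Markers of other cells were also present: 4 neuron markers summed to a median of 1246 CPM in brain, 7 alveolar type II cell markers to 3097 CPM in lung and 4 cardiac muscle markers to 2888 CPM in heart.

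MHC class II molecules display peptides from taken-up material to CD4 T cells. The alpha and beta chains pair in the endoplasmic reticulum with the invariant chain, which blocks the groove and steers the complex to endosomes. There cathepsin S, the product of Ctss, trims the invariant chain to a short remnant, and the H2-DM dimer exchanges that remnant for a peptide. Transcription is set by CIITA, a co-activator without DNA-binding activity of its own that docks on factors held at the X and Y boxes of class II promoters. B cells, dendritic cells and thymic epithelium use the pathway constitutively, and endothelial cells are known as cells in which interferon gamma can induce it. Strain C57BL/6J lacks a working alpha chain of the second class II molecule, I-E, although H2-Eb1, its beta chain gene, is transcribed. H2-Ea-ps, the remnant of that alpha chain gene, had 0 counts in every kept library.

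The promoter windows of 3 members are shown because they carry the elements through which class II genes and interferon-responsive genes are known to be read. The sequences come from the RefSeq promoter table of build GRCm38.p6, which covers 250 bases before to 50 bases after a start site. Capitals mark the X box core CTNGNAAC and the Y box core TGATTGG in H2-Aa and H2-Eb1, and the core GAAANNGAAA of an interferon response element in Ctss. H2-Aa lies on chr17:34287852-34287922, minus strand, and its capitals run from 84 to 44 bases before the start site. H2-Eb1 lies on chr17:34305758-34305827, plus strand, with capitals from 94 to 55 bases before the start site. The Ctss window is chr3:95526750-95526785, plus strand, with capitals from 21 to 12 bases before the start site.
H2-Aa: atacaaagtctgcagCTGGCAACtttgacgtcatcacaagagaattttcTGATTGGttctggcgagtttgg
H2-Eb1: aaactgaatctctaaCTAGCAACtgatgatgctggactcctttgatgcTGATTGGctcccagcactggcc
Ctss: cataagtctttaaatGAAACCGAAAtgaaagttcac

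Between the X and Y cores lie 26 bases in H2-Aa and 25 bases in H2-Eb1. An X core followed within 40 bases by a Y core stood in 31 of 32851 promoters of the table, or 0.0944%, searched on both strands, and H2-DMb1 and H2-Ob were also among the 31. The X core alone was in 13.2% of all promoters, the Y core alone in 7.82% and the interferon element core in 3.44%, so a single core is a common match. The letters were chosen with these sequences in view, and a match is a description of the sequence. The entries of H2-DMa hold none of these letters in this window. Cd74, H2-Ab1 and Ciita have no entry.

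At 0 hr all 8 genes were higher in lung than in brain and higher in lung than in heart (edgeR quasi-likelihood test, Benjamini-Hochberg adjusted over 17730 genes). Of all genes tested, 26.4% were higher and 37.9% lower in lung than in brain, and 29.9% were higher and 31.2% lower in lung than in heart. The widest gaps to brain were those of H2-Ab1, the beta chain of the I-A molecule, at 29.5-fold, and of H2-DMb1, a chain of the peptide exchanger, at 26.2-fold. The median log2 difference over all genes was -0.42 for lung minus brain and -0.09 for lung minus heart.

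**Figure D1:**
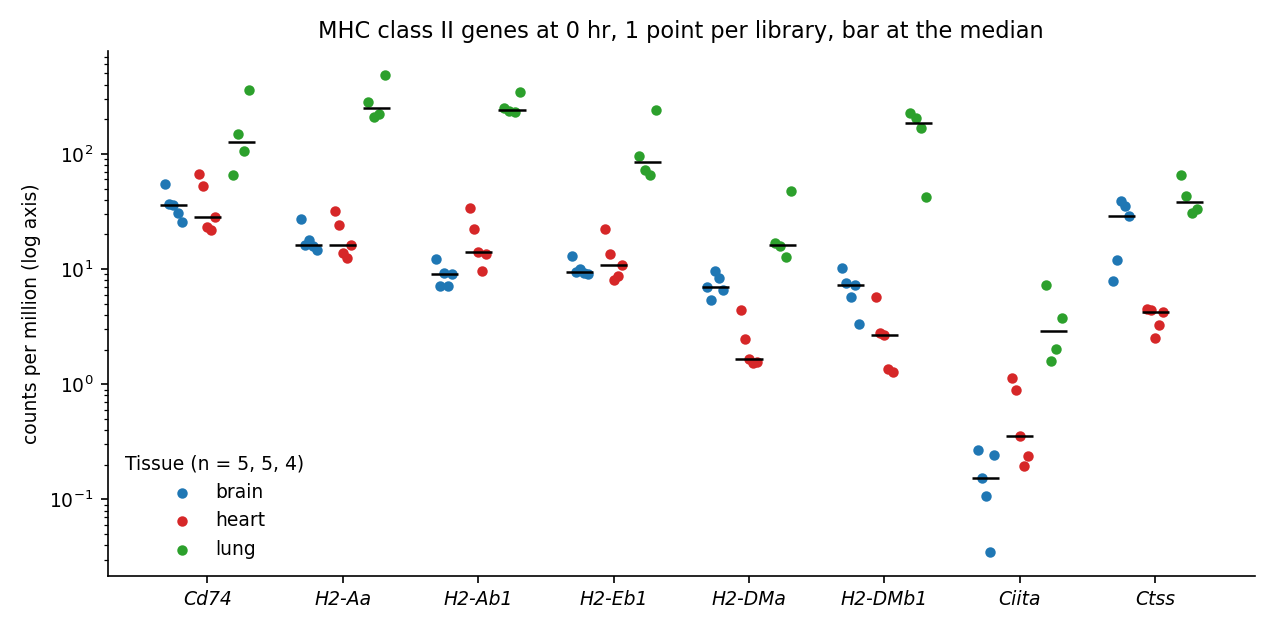
Level of each of the 8 genes at 0 hr in CPM (vertical log axis), with 1 point per library (brain n = 5, heart n = 5, lung n = 4) and a bar at the group median. Lung libraries lie above all brain libraries for every gene except Ctss, and above all heart libraries for every gene except Cd74. The share of all genes separated in this way was not counted.

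The class II chains of lung did not overlap with those of brain or heart. At 0 hr the share of all genes without such overlap between tissues was not counted. H2-Ab1 stood at 229.6, 235.0, 249.6 and 345 CPM in the 4 lung libraries, at 7.16, 7.19, 9.03, 9.23 and 12.3 CPM in brain, and at 9.67, 13.7, 14.0, 22.3 and 33.8 CPM in heart. The lowest lung library was far above the highest heart library, and the log2 difference from brain was 4.88 ± 0.28 (SE; adjusted p = 5.31e-09). H2-Aa, the alpha chain of the same molecule, was 15.8-fold higher in lung than in brain (log2 difference 3.98 ± 0.24 SE, adjusted p = 6.59e-09) and 14.9-fold higher than in heart (adjusted p = 5.00e-08). H2-Eb1 measured 65.7, 73.2, 95.6 and 241 CPM in lung against 9.03 to 13.0 CPM in brain and 8.00 to 22.5 CPM in heart, a 10.5-fold and an 8.60-fold difference (adjusted p = 1.68e-07 and 8.24e-07). Lung replicate 4 held the highest value of Cd74, H2-Aa, H2-Ab1, H2-Eb1 and H2-DMa among the 4 lung libraries.

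Cd74, which encodes the invariant chain, differed less. Its 4 lung libraries measured 65.8, 105, 148 and 361 CPM, all above the brain range of 25.8 to 54.8 CPM, while the lowest fell just under the highest heart library of 67.2 CPM. The lung level was 4.45-fold that of brain (log2 difference 2.15 ± 0.35 SE, adjusted p = 9.19e-05) and 4.37-fold that of heart (adjusted p = 0.000134).

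The transactivator and the peptide exchanger were also highest in lung. Ciita, the gene that sets class II transcription, measured 1.58, 2.02, 3.75 and 7.25 CPM in lung, 0.0351, 0.106, 0.155, 0.241 and 0.269 CPM in brain and 0.195 to 1.14 CPM in heart. No lung library overlapped with either tissue, and the lung level was 17.9-fold that of brain (adjusted p = 9.74e-06) and 6.17-fold that of heart (adjusted p = 0.000339). H2-DMb1 stood at 42.7, 169, 206 and 228 CPM in lung, against 3.31 to 10.1 CPM in brain and 1.28 to 5.69 CPM in heart. Its 65.2-fold difference between lung and heart was the largest of the 8 genes (log2 difference 6.03, adjusted p = 8.24e-07). H2-DMa, its partner chain, measured 12.7, 15.7, 16.8 and 47.8 CPM in lung, 5.42 to 9.66 CPM in brain and 1.53 to 4.38 CPM in heart, so the difference from brain was 2.82-fold (adjusted p = 0.00263). H2-DMb1 has a near-identical neighbour, H2-DMb2. Reads that align to both were not counted for either gene, so their levels may be too low. H2-DMb2 was also higher in lung than in brain (log2 difference 5.28 ± 0.55 SE, adjusted p = 1.33e-06).

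Ctss was the member with the smallest gap between lung and brain. It measured 30.5, 33.1, 43.2 and 66.1 CPM in lung, 7.81, 11.9, 29.1, 35.5 and 39.3 CPM in brain and 2.51 to 4.47 CPM in heart. The lung and brain libraries overlapped, and the 2.01-fold difference was close to the threshold (adjusted p = 0.0493). That call was lost in 7 of 14 fits that left out 1 library each, with an adjusted p of 0.161 without brain 0 hr replicate 2. The 11.9-fold difference between lung and heart showed no overlap (adjusted p = 9.39e-06).

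Brain and heart differed in both directions. H2-Ab1 (2.02-fold, adjusted p = 0.00245) and Ciita (2.90-fold, adjusted p = 0.0200) were higher in heart, 2 of 8 genes where 22.8% of all genes were higher in heart. H2-DMa (3.42-fold, adjusted p = 0.000663), H2-DMb1 (2.49-fold, adjusted p = 0.0247) and Ctss (5.92-fold, adjusted p = 9.20e-05) were lower in heart, 3 of 8 where 32.0% of all genes were lower. Cd74 differed by 0.03 on the log2 scale (adjusted p = 0.953), H2-Aa by 0.08 (adjusted p = 0.761) and H2-Eb1 by 0.28 (adjusted p = 0.373), none of which passed the test. The Ciita call was lost without brain 0 hr replicate 2 (adjusted p = 0.0561) or heart 0 hr replicate 3 (adjusted p = 0.0564), and the H2-DMb1 call in 5 of 14 such fits (adjusted p 0.0501 to 0.0690).

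Compared per kilobase of exon, the order of the 8 genes differed between tissues. In brain, Ctss and Cd74 led with a median of 21.4 CPM per kb each. H2-Eb1 (4.86), H2-DMb1 (4.36), H2-Aa (4.24), H2-Ab1 (3.52) and H2-DMa (2.03 CPM per kb) followed, and Ciita came last at 0.0162 CPM per kb. Within that order the steps from Cd74 to H2-Eb1 and from H2-DMa to Ciita were free of overlap between libraries, and all other neighbours overlapped. In lung, H2-DMb1 (111), H2-Ab1 (94.3), Cd74 (75.2), H2-Aa (66.5) and H2-Eb1 (43.4 CPM per kb) formed an overlapping upper group with Ctss at 28.1 CPM per kb. H2-DMa at 4.72 and Ciita at 0.303 CPM per kb were each separated from the gene above. In heart, Cd74 led alone at 17.0 CPM per kb, ahead of H2-Eb1 (5.60), H2-Ab1 (5.45) and H2-Aa (4.23 CPM per kb). H2-Aa did not overlap with Ctss at 3.15 CPM per kb, nor H2-DMa at 0.479 with Ciita at 0.0376 CPM per kb.

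On build mm10 (GENCODE M21 annotation), 5 of the genes lie within 197.1 kb of chromosome 17, in the order H2-DMa, H2-DMb1, H2-Ab1, H2-Aa and H2-Eb1, from 34119541 to 34316674. Ciita is on chromosome 16 from 10480059 to 10528418 and Ctss on chromosome 3 from 95526786 to 95556403. Cd74 (ENSMUSG00000024610.14) is on chromosome 18 from 60803848 to 60812652. All 8 are protein-coding genes, and all but H2-Aa lie on the plus strand. In the exons of H2-DMa 360 bases overlap the opposite-strand gene Brd2, and in those of Ciita 329 bases overlap Dexi.

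Leukocyte markers were higher in the lung libraries too. At 0 hr the 7 B cell markers summed to a median of 184 CPM in lung (116 to 386), 11.9 CPM in brain (9.16 to 17.2) and 2.98 CPM in heart (2.01 to 8.09). The 8 dendritic cell markers summed to 404 CPM in lung (134 to 626), 33.5 CPM in brain (27.2 to 60.8) and 118 CPM in heart (111 to 156). In heart 7 of the 8, all but Zbtb46, had a median under 1 CPM over the 28 libraries of all times. The same held for 6 of the 8 in brain and 4 of the 8 in lung. Ptprc (CD45), a marker of all leukocytes, had a median of 15.0 CPM in lung, 1.32 CPM in brain and 1.52 CPM in heart. Of those tested, 5 of 6 B cell markers and 6 of 7 dendritic cell markers were higher in lung than in brain. The alveolar marker Sftpc reached 7373 CPM in a lung library at 0 hr. The part of these cells in the lung levels was not tested, and in libraries of whole tissue precipitates a larger share of cells of a type cannot be told apart from more RNA per cell.

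After LPS the class II chains fell in the brain libraries. H2-Eb1 was lower at 24, 48 and 72 hr, and H2-Aa, H2-Ab1 and H2-DMa were lower at 48 and 72 hr. In all, 9 of the 35 pairs of a member and a time point that could be tested were lower and 2 were higher, the latter both for Ctss. Over all genes, 2.71% of pairs were lower and 4.36% higher. At 168 hr no member passed the test in brain by edgeR, DESeq2, limma-voom or limma after ComBat, and edgeR gave an unadjusted p under 0.05 for Ctss alone (p = 0.0338). Of all 19234 genes, 828 had one at that time, in either direction. The median log2 fold change of the 7 tested members was -0.40, -0.84, -1.02, -1.39 and -0.03 at the 5 times after LPS in order, where the median over all 19234 genes stayed between -0.04 and 0.09.

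**Figure D2:**
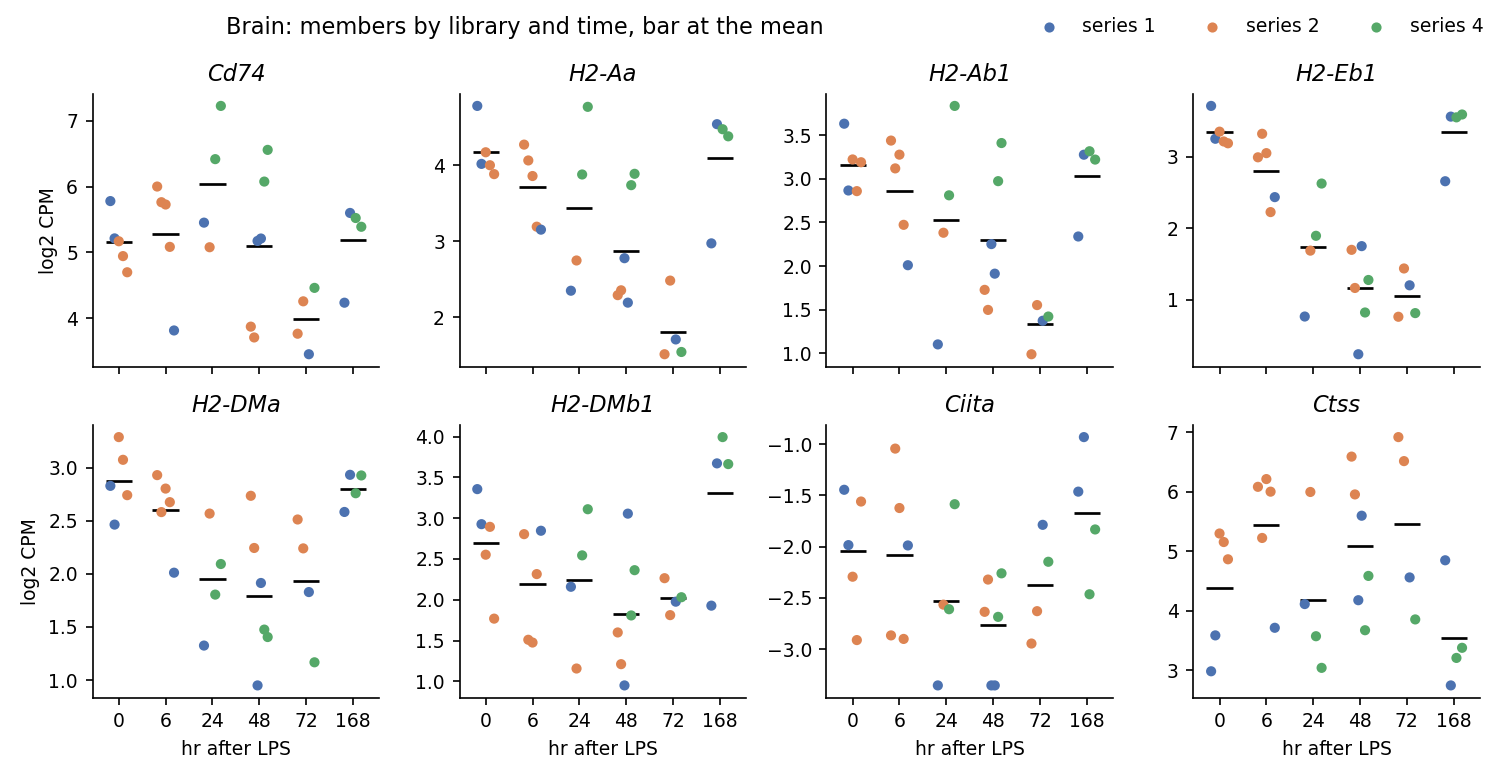
Log2 CPM of the 8 genes in each brain library (vertical axis) by hours after LPS (horizontal axis), with points coloured by library series and a bar at the group mean. H2-Eb1 libraries at 24, 48 and 72 hr all lie below every 0 hr library, and those of H2-Aa and H2-Ab1 do so at 72 hr.

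H2-Eb1 showed the earliest call. It measured 9.03, 9.19, 9.44, 10.1 and 13.0 CPM at 0 hr and 4.59 to 9.91 CPM at 6 hr. At 24 hr the 4 libraries stood at 1.60, 3.13, 3.63 and 6.08 CPM, at 48 hr the 6 libraries ran from 1.08 to 3.27 with a median of 2.24 CPM, and at 72 hr the values were 1.60, 1.66, 2.21 and 2.61 CPM. No library of these 3 times overlapped with 0 hr. The log2 fold change was -1.59 ± 0.38 (SE) at 24 hr (adjusted p = 0.00840), -2.16 ± 0.31 at 48 hr (adjusted p = 0.000135) and -2.36 ± 0.36 at 72 hr (adjusted p = 0.000313), a 4.48-fold and a 5.15-fold fall at the later 2 times. At 168 hr the libraries measured 6.22, 11.6, 11.7 and 12.0 CPM (log2 fold change -0.03). The 24 hr call was lost without brain 24 hr replicate 1, which held the lowest value (log2 fold change -1.23, adjusted p = 0.0556).

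H2-Aa and H2-Ab1, which encode the I-A molecule, reached their lowest levels at 72 hr. H2-Aa measured 14.6, 15.9, 16.1, 17.9 and 27.4 CPM at 0 hr and 2.75, 2.81, 3.17 and 5.48 CPM at 72 hr, a 5.66-fold fall without overlap (log2 fold change -2.50 ± 0.40 SE, adjusted p = 0.000528). H2-Ab1 measured 7.16 to 12.3 CPM at 0 hr and 1.89, 2.49, 2.58 and 2.84 CPM at 72 hr, a 4.18-fold fall without overlap (log2 fold change -2.06 ± 0.37 SE, adjusted p = 0.00135). At 48 hr some libraries of both genes still lay within the 0 hr range, and the log2 fold changes were -1.61 ± 0.36 for H2-Aa (adjusted p = 0.00508) and -1.13 ± 0.33 for H2-Ab1 (adjusted p = 0.0242). The 48 hr call of H2-Ab1 was lost without brain 0 hr replicate 1 (adjusted p = 0.114), and both 48 hr calls without the library series as a covariate (adjusted p = 0.0737 for H2-Aa and 0.259 for H2-Ab1). At 24 hr H2-Aa spread from 4.99 to 27.1 CPM and did not pass the test (log2 fold change -1.16, adjusted p = 0.0696).

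H2-DMa, but not H2-DMb1, passed the test in brain. H2-DMa measured 5.42, 6.58, 7.00, 8.32 and 9.66 CPM at 0 hr, a median of 3.18 CPM at 48 hr (1.83 to 6.56) and 2.15, 3.45, 4.62 and 5.60 CPM at 72 hr. The libraries overlapped at both times, with log2 fold changes of -0.82 ± 0.21 (SE, adjusted p = 0.0122) and -0.85 ± 0.23 (adjusted p = 0.0376). Without brain 0 hr replicate 1 neither held (adjusted p = 0.0687 and 0.173), and the 72 hr call was lost in 19 of 28 fits that left out 1 library. H2-DMb1 ran from 3.31 to 10.1 CPM at 0 hr and from 1.83 to 8.22 CPM at 48 hr, and its log2 fold change of -1.02 there did not pass the test (adjusted p = 0.0664). Ciita never exceeded 0.426 CPM in a brain library and was removed by the filter on low counts, so its response in brain was not detectable at this depth.

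Cd74 did not pass the test in brain at any time. It measured 25.8, 30.7, 35.9, 37.0 and 54.8 CPM at 0 hr, 33.7, 43.7, 85.4 and 149.7 CPM at 24 hr and 13.0 to 94.2 CPM at 48 hr. At 72 hr its 4 libraries, at 10.8, 13.5, 19.0 and 21.9 CPM, all lay below 0 hr, with a log2 fold change of -1.39 ± 0.42 (SE) that did not pass the test (adjusted p = 0.0638). The 2 libraries above 80 CPM at 24 hr both belonged to library series 4, which has no 0 hr library. DESeq2 (adjusted p = 0.0213) and limma after ComBat (adjusted p = 0.0210) placed the 72 hr value of Cd74 past the threshold.

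The falls in brain were present within each library series that held 0 hr libraries. For H2-Eb1 the difference of mean log2 CPM from 0 hr was -2.72 in series 1 and -1.56 in series 2 at 24 hr, -2.49 and -1.82 at 48 hr, and -2.28 and -2.15 at 72 hr. For H2-Aa it was -1.92 and -1.70 at 48 hr and -2.69 and -2.02 at 72 hr, and for H2-Ab1 -1.17 and -1.48 at 48 hr and -1.88 and -1.82 at 72 hr. These differences rest on 2 and 3 libraries at 0 hr and on 1 or 2 at each later time. Within a series no library overlapped with 0 hr, but the share of all genes without such overlap was not counted. At 168 hr series 1 alone gave a value, with -0.37 for H2-Eb1, -0.64 for H2-Aa and -0.44 for H2-Ab1.

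Some B cell markers were lower in the same brain groups. Their summed level had a median of 11.9 CPM at 0 hr and 4.95 CPM at 24 hr (3.13 to 9.88). It was 4.11 CPM at 48 hr (1.83 to 9.51), 4.07 CPM at 72 hr (1.61 to 8.36) and 9.38 CPM at 168 hr (7.67 to 12.6). Of 25 tested pairs of a B cell marker and a time point 4 were lower and none higher: Cd79a, part of the B cell receptor, at 24, 48 and 72 hr (log2 fold changes -2.07, -2.79 and -1.87) and Ighm, the IgM heavy chain, at 72 hr (-1.45). Cd79a had a median of 3.08 CPM at 0 hr (1.86 to 5.03), 0.391 CPM at 48 hr (0.319 to 0.779) and 5.09 CPM at 168 hr (2.18 to 6.11), so its low and high groups were those of H2-Eb1. Ms4a1, Cd79b and Pax5, further B cell markers, had a median under 1 CPM over the 28 brain libraries. Dendritic cell markers summed to 33.5 CPM at 0 hr, 35.4 CPM at 48 hr and 31.8 CPM at 72 hr, most of it Zbtb46, with a median of 28.0 CPM at 0 hr. Of their 25 pairs 2 were higher and 1 lower, and 6 of the 8 markers, Itgax and Xcr1 among them, had a median under 1 CPM over the 28 libraries. The 4 neuron markers summed to a median of 2135 CPM in brain at 0 hr (851 to 3649). At 6, 24, 48, 72 and 168 hr the median was 3666, 717, 662, 1215 and 629 CPM. For the 10 endothelial markers it was 1623 CPM at 0 hr, then 1425, 2229, 2824, 2572 and 2080 CPM. All ranges overlapped with 0 hr, and these sums take no account of library series. The part of B cells or of the cell makeup in the fall of the class II chains was not tested.

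Ctss went the other way. In brain it ran from 7.81 to 39.3 CPM at 0 hr, from 12.7 to 96.3 CPM at 48 hr and from 14.4 to 121 CPM at 72 hr, with overlap between groups. In the fit with library series it rose 3.03-fold at 48 hr (log2 fold change 1.60 ± 0.30 SE, adjusted p = 0.00168) and 2.82-fold at 72 hr (1.49 ± 0.31 SE, adjusted p = 0.00542). Its mean at 0 hr differed between series, at 3.28 log2 CPM in series 1 and 5.11 log2 CPM in series 2, and within them the difference from 0 hr was 1.60 and 1.17 at 48 hr and 1.28 and 1.61 at 72 hr, without overlap. Without the series covariate both calls were lost (adjusted p = 0.308 and 0.434).

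In the heart libraries Ctss was the only member that passed the test at any time in the fit of all kept libraries. It measured 2.51, 3.25, 4.28, 4.41 and 4.47 CPM at 0 hr, 3.12, 9.00, 10.3, 14.4 and 17.5 CPM at 6 hr, 5.26, 7.57, 8.87 and 12.8 CPM at 24 hr and 7.04 to 20.4 CPM at 48 hr. All libraries of 24 and 48 hr lay above those of 0 hr. The rise was 2.58-fold at 6 hr (log2 fold change 1.37 ± 0.38 SE, adjusted p = 0.00756), 2.77-fold at 24 hr (1.47 ± 0.43 SE, adjusted p = 0.0260) and 3.87-fold at 48 hr (1.95 ± 0.37 SE, adjusted p = 0.00274). These are 3 of 40 pairs, where 6.97% of all pairs in heart were higher. Within library series the 6 hr difference was 1.89 in series 2 and -0.49 in series 1, which held 1 library at that time. The 24 hr call was lost without heart 0 hr replicate 3, heart 0 hr replicate 4 or heart 24 hr replicate 4 (adjusted p 0.0561 to 0.0583).

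Macrophages and microglia are known to make cathepsin S, and macrophage and monocyte markers were also higher after LPS in brain. Their 10 genes summed to a median of 161 CPM in brain at 0 hr (46.8 to 172). The median was 417 CPM at 6 hr, 372 CPM at 24 hr and 415 CPM at 48 hr (337 to 593). It was 376 CPM at 72 hr (183 to 484) and 51.7 CPM at 168 hr. These sums take no account of library series. In the fit with series 18 of 50 pairs in brain were higher and none lower. At 6 hr 1 of 10 markers was higher (median log2 fold change 0.14), and at 24 hr 2 were. The number was 8 at 48 hr (median 1.83), 7 at 72 hr (1.62) and 0 at 168 hr (0.82). In heart the sum was 63.9 CPM at 0 hr (51.3 to 84.9), 97.9 CPM at 6 hr, 48.4 CPM at 24 hr and 138 CPM at 48 hr (48.6 to 378), with 7 of 50 pairs higher and 1 lower. By time, 1 of the 10 heart markers was higher and 1 lower at 6 hr, 2 were higher at 24 hr and 4 at 48 hr. The 5 microglia markers summed to 174 CPM in brain at 0 hr (124 to 217), 141 CPM at 48 hr and 152 CPM at 72 hr, with none of 25 pairs higher and 1 lower. Neutrophil markers were higher after LPS in heart as well. Their 5 genes summed to a median of 0.735 CPM at 0 hr (0.538 to 0.877) and 38.7 CPM at 6 hr (0.510 to 57.1). Later the sum was 14.9 CPM at 24 hr (7.12 to 29.7) and 22.4 CPM at 48 hr (11.0 to 42.7). At 72 hr it was 12.4 CPM (1.32 to 16.4). Of the 4 that could be tested 4, 3, 4 and 3 were higher at 6, 24, 48 and 72 hr. Ctss did not pass the edgeR test in heart at 72 hr (adjusted p = 0.687). At 6 hr 8 of 10 endothelial markers were lower and 1 higher in heart, and their sum went from a median of 9797 to 6103 CPM. The part of these cells in the Ctss values was not tested.

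No class II chain passed the test in heart, although the fitted changes at 72 hr were below 0 for 7 of 8 members, with a median of -1.10 on the log2 scale where the median over all 16024 genes was 0.00. None of the 40 pairs was lower by edgeR, where 5.71% of all pairs were. At an unadjusted p under 0.05 edgeR gave 4 lower pairs, and after adjustment DESeq2 and limma-voom gave none and limma after ComBat gave 1. Of all 16024 genes, 680 to 8310 per time had an unadjusted p under 0.05 by edgeR, in either direction. H2-Eb1 measured 8.00, 8.64, 10.9, 13.5 and 22.5 CPM at 0 hr and 0.933, 0.936, 3.42 and 10.3 CPM at 72 hr, a log2 fold change of -1.76 ± 0.61 (SE, adjusted p = 0.395). Without heart 72 hr replicate 1, which held the 10.3 CPM, it was -2.81 (adjusted p = 0.0138). Cd74 measured 5.12, 5.24, 15.8 and 26.1 CPM at 72 hr against 21.9 to 67.2 CPM at 0 hr (adjusted p = 0.718), and 34.5, 55.5, 109.6 and 118 CPM at 24 hr.

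In lung none of the 40 pairs passed the test in either direction by edgeR, where 0.703% of all pairs were higher and 0.498% lower. At an unadjusted p under 0.05, 1 pair was higher and 11 were lower. Of all 17058 genes, 605 to 3960 per time were under it, in either direction. DESeq2 called 2 pairs lower, limma-voom none and limma after ComBat 5, and none of these tools called any higher. At 72 hr all 8 fitted changes were below 0, with a median of -1.74 on the log2 scale where the median over all 17058 genes was -0.04. H2-Eb1 stood at 6.10, 19.6, 22.3 and 22.7 CPM at 72 hr, all below the 65.7 to 241 CPM of 0 hr, with a log2 fold change of -2.75 ± 0.78 (SE, adjusted p = 0.192). H2-Aa, H2-Ab1 and H2-DMa also lay below their 0 hr libraries in all 4 libraries at 72 hr. The share of all genes separated in this way was not counted, and none of these members passed the test. Cd74 had a log2 fold change of -2.73 ± 0.84 (SE, adjusted p = 0.270), with 15.1, 16.1, 44.2 and 67.9 CPM at 72 hr. At 168 hr H2-DMa measured 31.0, 41.4, 43.2 and 83.3 CPM (log2 fold change 1.36, adjusted p = 1.00). At 72 hr the log2 fold change of the lung B cell markers was -1.75 in the median, and their sum was 50.9 CPM (21.2 to 78.9) against 184 CPM at 0 hr. For the dendritic cell markers the median was -2.71, and the sum was 333 CPM (179 to 512) against 404 CPM. None of the 7 B cell or 8 dendritic cell markers passed the test at that time. Neutrophil markers summed to 1405 CPM (719 to 1717) against 92.8 CPM at 0 hr (26.3 to 201), with 2 of 5 higher. The part of these cells in the lung values was not tested.

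**Figure D3:**
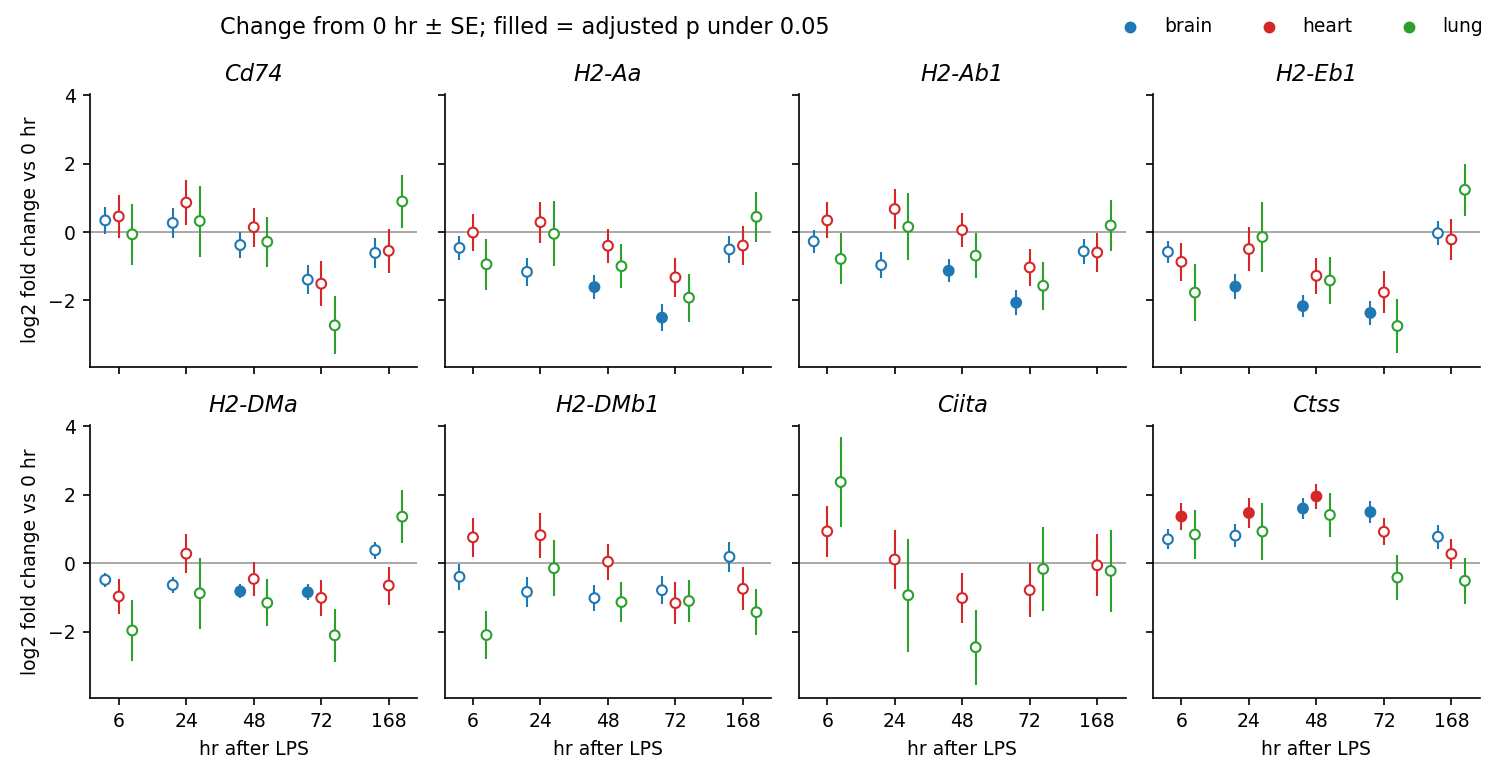
Log2 fold change from 0 hr (vertical axis) with its SE as error bars, by hours after LPS, for the 8 genes in brain, heart and lung from the edgeR fit of each tissue; filled points have an adjusted p under 0.05 and Ciita has no brain value. Filled points are 11 in brain, 3 in heart and 0 in lung, and the lung error bars are the longest.

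The lung values at 6 hr depended on the shallowest library. The 4 libraries measured 0, 109, 200.1 and 1045 CPM of Cd74, 0, 4.37, 22.0 and 151 CPM of H2-Eb1 and 0, 6.38, 8.96 and 45.1 CPM of Ciita. The log2 fold change of H2-DMb1 was -2.10 ± 0.69 (SE, adjusted p = 0.0699), and without replicate 4 it was -1.87 (adjusted p = 0.126). H2-Eb1 changed by -1.77 (adjusted p = 0.199), or by -1.50 without replicate 4 (adjusted p = 0.338), and Cd74 by -0.07 (adjusted p = 0.975), or by 0.50 without it (adjusted p = 0.786). Without lung 6 hr replicate 1, which held the highest values of the class II chains and in which Igkc, an antibody light chain, stood at 3744 CPM, H2-Eb1 (log2 fold change -3.40, adjusted p = 0.0262) and H2-DMa (-3.36, adjusted p = 0.0471) passed the test. H2-DMb1 passed it without lung 0 hr replicate 4 (adjusted p = 0.0480) or lung 6 hr replicate 3 (adjusted p = 0.00931). Lung 6 hr replicate 4 was kept in the fits that gave these calls.

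The tissues were then compared in their change from 0 hr, in a fit of all libraries. No pair of a member and a time point out of 40 differed between lung and brain, between lung and heart or between brain and heart by edgeR, where 4.22%, 4.21% and 0.349% of all pairs did. At an unadjusted p under 0.05 the counts were 2, 2 and 1. Of all 22007 genes, 2602 to 6321 per time were under it between lung and brain. The numbers were 2424 to 6859 between lung and heart and 508 to 2580 between brain and heart. DESeq2 and limma-voom called none in any of the 3 comparisons, and limma after ComBat called 2 between lung and brain, 5 between lung and heart and none between brain and heart. The smallest adjusted p belonged to H2-DMb1 at 6 hr between lung and heart, with a difference of log2 changes of -1.99 ± 0.78 (SE, adjusted p = 0.0618, 0.00463 to 0.787 over the alternatives). By the file names most mice gave libraries of more than 1 tissue, and deviations of 74 pairs of libraries from the same mouse had a median correlation of 0.28, which this fit does not take into account. With the mouse as a block 1 pair differed between lung and brain, H2-DMb1 at 168 hr (difference -2.66, adjusted p = 0.0145), and 1 between lung and heart, H2-DMb1 at 6 hr (-2.42, adjusted p = 0.0214). In neither fit were the falls that passed the test in brain shown to differ from the changes in lung or heart.

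H2-Eb1 was also set against H2-Ab1 within each library, a ratio that library size does not touch. This ratio was chosen after the values had been seen and is given as a description. In heart the log2 CPM of H2-Eb1 minus that of H2-Ab1 ran from -0.80 to -0.16 at 0 hr, from -2.05 to -1.05 at 6 hr, from a median of -1.89 up to -1.74 at 24 hr, from -2.27 to -1.52 at 48 hr, from -2.56 to -0.51 at 72 hr and from -0.46 to -0.16 at 168 hr. No heart library of 6, 24 or 48 hr overlapped with 0 hr. In brain it ran from 0.00 to 0.39 at 0 hr, from -1.21 to -0.34 at 24 hr, from -2.15 to -0.03 at 48 hr, from -0.61 to -0.11 at 72 hr and from 0.24 to 0.37 at 168 hr. The brain libraries of 24, 48 and 72 hr all lay below those of 0 hr. In lung the 4 libraries of 72 hr, at -2.42 to -2.10, lay below those of 0 hr, at -1.80 to -0.52. The 4 of 168 hr, at -0.47 to -0.34, lay above. In lung this ratio also differed with the endothelial marker Cdh5. Its median was -0.46 (-1.57 to -0.34) in 6 libraries with Cdh5 of at least 1400 CPM. In the 17 below that level it was -2.10 (-4.29 to -0.50). This cut was not planned in advance and lies in a gap of the Cdh5 values, between 974 and 1467 CPM. All libraries of 168 hr were among the 6, and none of 72 hr was. The part of the cell makeup in this ratio was not tested.

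**Figure D4:**
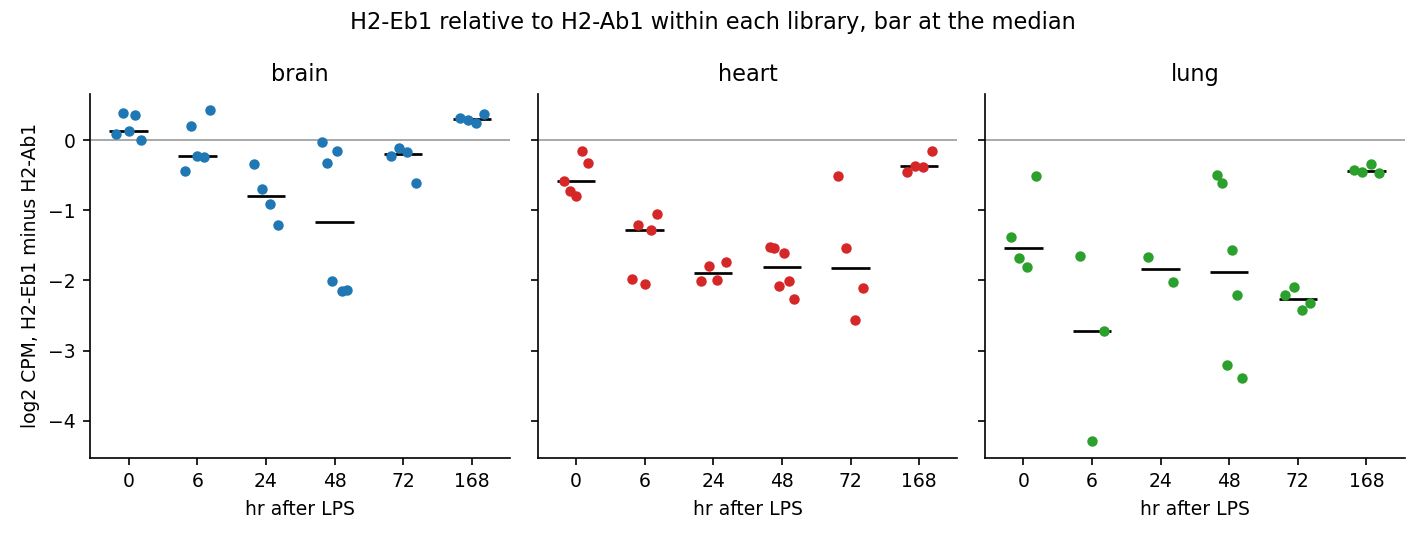
Log2 CPM of H2-Eb1 minus log2 CPM of H2-Ab1 in each library (vertical axis) by hours after LPS (horizontal axis) in brain, heart and lung, with a bar at the median and lung 6 hr replicate 4 not drawn because both genes had no count. In heart the points at 6, 24 and 48 hr lie below all points at 0 hr, and those at 168 hr lie between -0.46 and -0.16.

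In lung the 2 chains of the peptide exchanger were not in a fixed ratio. The log2 CPM of H2-DMb1 minus that of H2-DMa was 3.70, 3.72 and 3.75 in 3 of the 0 hr libraries and -0.16 in replicate 4. At 168 hr it was -0.33, 0.08, 0.24 and 0.38 in the 4 libraries, and at 72 hr 3.47, 4.05, 4.17 and 4.22. The endothelial marker Cdh5 stood at 291, 453 and 556 CPM in the first 3 libraries of 0 hr and at 2100.5 CPM in replicate 4, at 1467 to 3076 CPM at 168 hr and at 196 to 951 CPM at 72 hr. H2-DMb1 at 168 hr measured 32.7, 51.1, 54.0 and 66.3 CPM, against 42.7 CPM in 0 hr replicate 4 and 169 to 228 CPM in the other 0 hr libraries. In replicate 4 of 0 hr Sftpc stood at 1567 CPM, and in the other 3 it was 6533 to 7373 CPM. At 6 hr replicate 1 had a ratio of 0.44 with Cdh5 at 214 CPM. The part of the cell makeup in the ratio of H2-DMb1 to H2-DMa was not tested. Reads that align to both H2-DMb1 and H2-DMb2 were not counted for either gene.

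**Figure D5:**
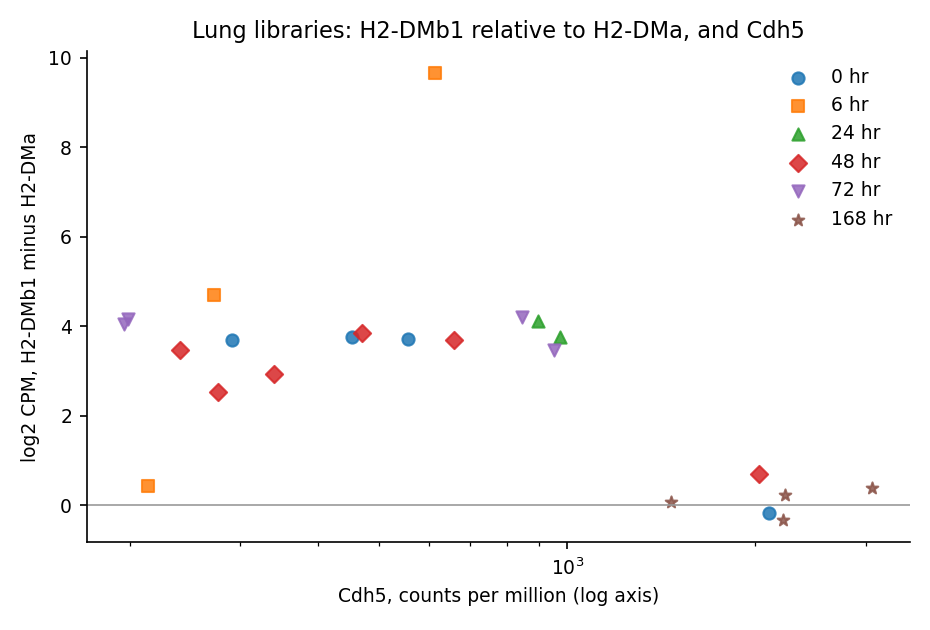
Log2 CPM of H2-DMb1 minus log2 CPM of H2-DMa (vertical axis) against the CPM of the endothelial marker Cdh5 (horizontal log axis) in 23 lung libraries, with the marker shape giving the hours after LPS. The 6 libraries with Cdh5 of 1467 CPM or more lie between -0.33 and 0.71, as does a 6 hr library with Cdh5 of 214 CPM, at 0.44, and the highest point, 9.65, is a 6 hr library without a count of H2-DMa.

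Other genes of the class II pathway mostly went up where they passed the test. In brain 13 of 65 pairs were higher and none lower, in heart 21 of 60 were higher and 2 lower, and in lung 2 of 80 were higher and none lower. The median log2 fold change over the pairs was 0.28 in brain, 0.67 in heart and 0.47 in lung. Of all genes and times, 4.36% of pairs were higher and 2.71% lower in brain, and 6.97% higher and 5.71% lower in heart. In lung 0.703% were higher and 0.498% lower. At 6 hr alone 3597 of all 16024 genes were higher in heart. The largest changes in brain were in genes of co-stimulation: Cd274, which encodes the checkpoint ligand PD-L1, rose at 6 hr (log2 fold change 4.08 ± 0.91 SE, adjusted p = 0.00591), Cd80 at 24 hr (2.74 ± 0.59), Cd40 at 6 hr (2.01 ± 0.43) and Icosl, the ICOS ligand, at 24 hr (1.93). In heart Cd40 (4.33 ± 0.56), Icosl (3.72) and Cd274 (3.67 ± 0.56) rose at 6 hr, while H2-Ob, a chain of the H2-DM inhibitor H2-O, fell at 24 hr (-3.67 ± 1.07). In lung Cd274 (3.69 ± 0.74) and Cd40 (2.55 ± 0.70) rose at 6 hr.

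Among factors of class II transcription and the interferon gamma pathway, 6 of 80 pairs were higher and 2 lower in brain, 14 of 80 higher in heart and none of 80 in either direction in lung. The median log2 fold change over the pairs was 0.12 in brain, 0.25 in heart and -0.30 in lung. Of all genes and times, 4.36% of pairs were higher and 2.71% lower in brain, and 6.97% were higher in heart. At 6 hr alone 3597 of all 16024 genes were higher in heart. In brain Nlrc5, the class I counterpart of Ciita, rose at 6 hr (3.23 ± 0.56 SE, adjusted p = 0.000710), as did Socs1, a brake on interferon signalling (2.67 ± 0.60), and Irf1 (1.49 ± 0.37). Rfxank, part of the complex that binds the X box, was lower at 24 hr (-0.85 ± 0.25, adjusted p = 0.0325). In heart Socs1 (6.55 ± 0.90), Nlrc5 (3.88 ± 0.49), Irf1 (2.84 ± 0.39) and Rfx5, another part of the X box complex (1.92 ± 0.37), rose at 6 hr. Ifng, the gene of interferon gamma itself, had no brain library above 0.102 CPM.

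The MHC class I genes, which present peptides made inside the cell, were higher, and none lower, where they passed the test after LPS. In brain 18 of 40 pairs of a class I gene and a time point were higher and none lower, with a median log2 fold change of 0.76. Tap1, a subunit of the peptide transporter, rose at 6 hr by 2.81 ± 0.52 (SE, adjusted p = 0.00123), Psmb8, a proteasome subunit, by 2.12 ± 0.36, and Tap2 by 1.56 ± 0.29. H2-K1, a class I heavy chain, rose by 1.71 ± 0.31 at 24 hr and by 1.71 ± 0.28 at 48 hr. In heart 12 of 40 pairs were higher and none lower, led by Tap1 (3.88 ± 0.54), Tap2 (3.30 ± 0.41), Psmb8 (2.68 ± 0.38) and Tapbp (2.25 ± 0.30) at 6 hr. In lung none of 40 passed the test in either direction. Of all genes and times, 4.36% of pairs were higher in brain, 6.97% in heart and 0.703% in lung. At 6 hr alone 3597 of all 16024 genes were higher in heart. At 0 hr 8 of the 8 class I genes were higher in heart than in brain. So were 2 of the 8 class II members and 22.8% of all genes.

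The genes most like the mean of Cd74, H2-Aa, H2-Ab1 and H2-Eb1 were found by Pearson r of log2 CPM across libraries after the means of the library series were removed. In brain, over 28 libraries and 12279 genes, these were Cryab (0.83), Tanc1 (0.81), Igf1 (0.78), Ndrg1 (0.78) and 1500015O10Rik (0.77). In lung, over 24 libraries and 9772 genes, they were Zfp740 (0.96), Ccng2 (0.94), Dhrs3 (0.94), Chst15 (0.93) and Hsd17b11 (0.93). In heart, over 28 libraries and 10704 genes, they were A630072M18Rik (0.79), Atxn7l3b (0.78), Ipmk (0.78), Spindoc (0.77) and Clk2 (0.75). No gene stood on the lists of 2 tissues. Libraries of a tissue share time points and depth, so these values are descriptions without a test.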

How the data were processed

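Ribosome-bound mRNA was precipitated with an anti-HA antibody from perfused tissue and sequenced. The counts were deposited by the authors per sequencing run, as unnormalized reads per gene (STAR 2.4.2, HTSeq 0.6.1 and mm10 in the submitters' processing notes). Unprecipitated input libraries were not analysed here. Runs of a library were summed, and libraries with under 3% of reads on genes were left out. Rows for reads on no gene or on several entered only that share. Tissue, time and replicate came from the labels. Library series and mouse came from file names, since sequencing batches are not labelled. The labels do not say that replicates are separate animals, so p-values measure the spread between these samples, which may be technical.

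Counts were tested in R 4.3.3 with edgeR 4.0.16 (filterByExpr, TMM, glmQLFit and glmQLFTest, two-sided) with library series as a covariate. Benjamini-Hochberg adjustment ran over all genes tested in a contrast, with a threshold of 0.05. The 0 hr libraries of the 3 tissues were fitted together, each tissue was fitted over all its times, and differences between tissues in the change from 0 hr were tested as interactions over all libraries. Log2 CPM used a prior count of 2. Alternatives were limma 3.58.1 (voom), DESeq2 1.42.0, sva 3.50.0 (ComBat, which the study used), other scalings and filters, blocks, and leaving out libraries. Leaving out lung libraries with few reads on genes was added after the data were seen. The steps were tested on simulated data.

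All 8 members are named, and from each list at most 4 genes per tissue by the largest change past the threshold, besides defining markers. Members and lists were chosen with earlier results of these data known. Coordinates are from GENCODE M21, which may not be the authors' release, and promoter sequences from RefSeq. Depth limits are counting error only.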

Additional observations from a re-analysis of the deposited data

Results flagged for a closer look

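Dixon's test at the 95% level was applied to each member in each group of 4 to 10 libraries, 136 in all, of which about 1 in 20 would be marked by chance, and 8 were. In brain at 168 hr replicate 1 was the lowest of 4 libraries and far from the others for 5 members, at 18.7 CPM of Cd74, 7.74 CPM of H2-Aa, 4.96 CPM of H2-Ab1, 6.22 CPM of H2-Eb1 and 3.71 CPM of H2-DMb1. In lung at 72 hr replicate 5 was the lowest of 4 for 3 members, at 30.9 CPM of H2-Ab1, 6.10 CPM of H2-Eb1 and 1.62 CPM of H2-DMa.

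Among the 18 libraries left out for their low share of reads on genes, some held counts of the members above the 3 counts that a count of 0 allows, while the 0 hr libraries left out in the same tissue held 0. The 8 members summed to 39 counts in lung at 48 hr, 43 in lung at 72 hr and 15 in lung at 168 hr, and to 6 in heart at 72 hr and 4 in heart at 168 hr. These libraries held 155176 to 1330479 counts on genes in all, and the limit covers counting error only.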

How the results depend on the processing

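No result turned its direction past the threshold under any alternative. All 259 results compared under DESeq2's size factors or a minimum of 1000000 counts on genes kept their side of the threshold. So did 3818 of 3876 under fits that left out 1 library or all libraries of 1 replicate number. Members higher in heart than in brain, 2 in the report, were 1 without the filter on low counts and 0 with every library kept. In brain the 2 higher pairs were 0 without the series covariate, and the 9 lower pairs were 14 after ComBat. The 0 lower pairs in lung were 2 by DESeq2, 2 without the filter and 5 after ComBat, and the 0 lower pairs in heart were 4 without the filter, 1 after ComBat and 1 with only 2 time points in each fit. The change differed between lung and brain for 1 pair without the filter, 2 after ComBat and 1 with a mouse block, and between lung and heart for 1, 5 and 1. Leaving out 1 library gave 6 to 10 lower and 2 higher pairs in brain. The counts were 2 to 3 higher and 0 to 1 lower in heart, and 0 to 2 lower and 0 higher in lung. At 0 hr leaving out 1 library gave 7 to 8 members higher in lung than in brain. It gave 8 higher in lung than in heart and 1 to 2 higher in heart than in brain. For the change between tissues, each of 4 fits left out all libraries of 1 replicate number. These fits gave 0 to 2 pairs for lung against either tissue and 0 between brain and heart. With a replicate block the lower pairs in brain were 8, the higher pairs in heart 2 and the members higher in lung than in brain 7, and the block kept 256 of 259 results on their side of the threshold. The labels do not say that a replicate number marks a shared animal, and not every same-numbered pair deviated together, so the numbers were not taken to pair the libraries. Of 73 same-numbered pairs from other tissues at the same time 53 had a correlation of deviations over 0.1 (median 0.27), against 85 of 293 with other numbers (median -0.06). Pairs of the same mouse by file name had 60 of 74 over 0.1 (median 0.28), and the mouse block kept 141 of 144 results on their side of the threshold. The cause of these shifts was not tested. With lung libraries under 20% of reads on genes left out, an alternative added after the data were seen, no lung pair passed the test, and Ctss was no longer higher in lung than in brain (log2 difference 0.57, adjusted p = 0.302). Depth limited Ciita in brain and every member in lung 6 hr replicate 4.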
